A study of Mus musculus with 12 samples.

Results

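The comparison described here set tamoxifen-treated against mock-treated podocyte cultures at day 4, and it used 4 of the 12 arrays of the series. The members were the cultures labelled with this tissue and time point, 2 mock and 2 tamoxifen, and they were paired by the replicate number in their labels. Podocytes, the epithelial cells that wrap the capillaries of the kidney's filtering units, the glomeruli, had been grown out of glomeruli isolated from adult mice. All 4 cultures carried an inducible Cre recombinase, named CreERT2 in the series' design text, together with Foxc1flox/flox and a second homozygous floxed allele. The labels give that second allele a different number in each of these cultures, Foxc6flox/flox to Foxc9flox/flox, whereas the series title names Foxc2, which was followed. The mock cultures therefore had the same floxed alleles and the same Cre as the treated cultures, and the groups differed in the agent, mock or tamoxifen. Drug and recombination went together in every treated culture, and their shares in a difference cannot be told apart. The promoter that drives the Cre and the age of the donor mice of the cultures were not given in the sources used here. The remaining arrays held the same pair of groups at day 7, and glomeruli of control and treated mice. The labels do not say whether numbered cultures came from separate animals, so the p-values measure the spread between these samples, which may be technical.

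Foxc1 and Foxc2 are closely related forkhead transcription factors, proteins that bind DNA through a winged-helix domain and can activate or repress nearby genes. Both are made in podocytes, and loss of either gene in the embryo disturbs kidney and glomerular development. Podocytes hold back plasma protein with a slit diaphragm, a cell junction built from nephrin and partner proteins between interlocking foot processes that rest on a laminin and collagen IV basement membrane. In culture these cells lose much of that architecture and take up an adherent, contractile form.

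Levels are given throughout as log2 of the background-subtracted spot signal minus the 75th percentile of the array, so that 0 is that percentile, and a difference is tamoxifen minus mock on this log2 scale. Between 57.9% and 59.5% of the spots of each array were well above background, 0 were saturated, and the 75th percentile lay at 505.2 to 619.6 signal units. The mock replicates correlated at 0.986 and the treated replicates at 0.989 across genes, which are not independent replicates. All 4 arrays lay on 1 slide with 1 scan number. Each replicate pair took neighbouring slide positions, so replicate number and position cannot be told apart. Array number limits the precision: an exact permutation test of 2 against 2 cannot give a two-sided p under 0.333, and all p-values below come from limma's fit across genes.

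The labelled cell type was checked against defining markers. Of the 33 slit diaphragm and foot process genes examined, 30 were well above background on both mock arrays. Nephrin, the slit protein encoded by Nphs1, lay 4.29 lower in the mock cultures than in control glomeruli (difference -4.29). Wt1, the podocyte transcription factor, differed by -0.67 and the actin-bundling protein gene Synpo by -0.83. Other podocyte genes were much lower in the mock cultures, among them Robo2 (-6.85), Ptpro (-7.58), Cdkn1c (-7.91) and Clic3 (-9.66). Tdrd5, well above background in both control glomeruli samples, was so on no day 4 array. Others were higher, such as Kirrel (2.24) and Foxd1 (2.44). Podocyte markers were thus retained to very different degrees. Cultures and glomeruli were on different slides, so tissue and slide cannot be told apart here. Of 22 endothelial markers, 18 were well above background on both mock arrays, Eng and Plat among them, and the other 4, Erg, Sox18, Tek and Tie1, on no day 4 array. The summed linear level of the list was 14.7 to 21.6 in day 4 cultures against 505.1 to 626.8 in control glomeruli. For 24 tubule markers the sums were 2.55 to 3.97 against 83.3 to 87.0, and 12 of these markers, among them Umod, Cdh1 and Epcam, were not well above background on any day 4 array. Smooth muscle actin, Acta2, read 7.82 and 7.64 in the mock cultures against 1.59 and 1.54 in control glomeruli.

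Foxc1 and Foxc2 were both lower in the treated cultures. Foxc2 read 1.76 and 1.45 on the mock arrays and -7.11 and -5.42 on the treated arrays. The groups were far apart, and neither treated array was well above background, so the fitted difference of -7.87 (SE 0.48, adjusted p = 0.011 by limma) has no measured lower end. As the floor on each treated array, the lowest signal that was well above background was taken, or the probe's own value where higher. By that floor Foxc2 was 139-fold lower. Some probes that were not well above background read higher than the floor, among them Slc12a3 at -4.86 on tamoxifen 1. This bound and those below are therefore relative to the floor and are not strict minima. Under the normexp background correction, which adds an offset to every signal, its difference was -3.29 (adjusted p = 0.015 by limma) and that of Foxc1 was -5.03 (adjusted p = 0.0083 by limma). Foxc1 read 3.09 and 4.21 in mock cultures. It read -5.78 and -1.74 in treated cultures, the first of which was not well above background. The difference was -7.41 (SE 1.00, adjusted p = 0.036 by limma), made up of -8.87 in the first pair and -5.95 in the second. The treated replicates thus differed from each other more than the mock replicates did, while both lay below both mock arrays. The Foxc1 call ended without the pairing (adjusted p = 0.21), on the 4 day 4 arrays alone (adjusted p = 0.079 with and 0.19 without the pairing) and without any of the 4 day 4 arrays (adjusted p = 0.15 and 0.14 without mock 1 and mock 2, 0.11 and 0.18 without tamoxifen 1 and tamoxifen 2, all by limma), with the difference between -8.63 and -6.19. The Foxc2 call ended on the day 4 arrays alone (adjusted p = 0.069 with and 0.13 without the pairing) and without mock 1 (adjusted p = 0.071) or mock 2 (adjusted p = 0.10), all by limma. Where the probes lie relative to the floxed exons was not given in the sources used here.

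Across the genome, 13580 named genes were tested and 550 (4.05%) are termed called, having a Benjamini-Hochberg adjusted p below 0.05 by limma. Of these, 255 rose (1.88% of genes tested) and 295 fell (2.17%). Called changes of at least 2-fold numbered 265 (1.95%), 137 of them higher and 128 lower, and 41 rises and 43 falls reached at least 4-fold. The median called change was 1.94-fold. An unadjusted p under 0.05 was reached by 3246 genes (23.9%), and the counts at that p given for gene lists below are read against this share. Over the 35 gene lists together, 65 of 693 distinct genes kept were called, a larger share than over all genes tested. The lists were written with earlier results of these data known. A list's share above 4.05% is therefore not particular to that list. The groups did not overlap for 501 of the called genes and overlapped for the other 49, of which 37 were lower in the treated cultures. Over all genes tested, both treated arrays lay above both mock arrays for 28.0% and below them for 23.1%.

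**Figure D1:**
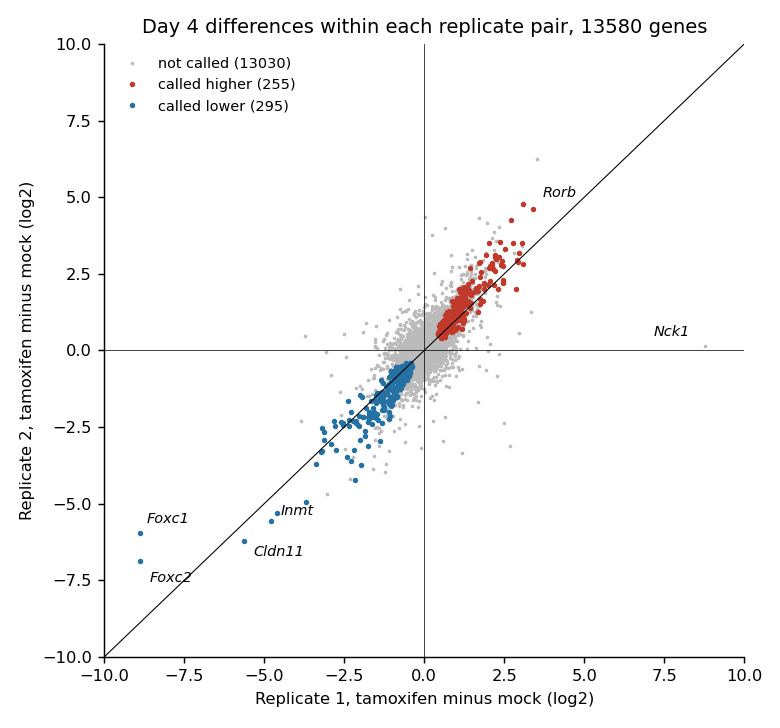
Difference between the tamoxifen and the mock array of replicate 1 (x axis, log2) and of replicate 2 (y axis, log2) for the 13580 genes tested, with 255 genes called higher in red, 295 called lower in blue and the rest in grey; the diagonal marks equal differences. Called genes lie near the diagonal and away from 0, Foxc1 and Foxc2 lie at the lower left, and Nck1, not called, differs in replicate 1 alone.

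The number of called genes rested on the pairing and on the day 7 cultures, which shared in the estimate of the spread. Without the pairing 18 genes were called, and the 4 day 4 arrays fitted alone gave 0 with the pairing, where 3794 genes had an unadjusted p under 0.05, and 0 without it, where 2220 did. Leaving out an array gave 8 called genes without mock 1, 1 without mock 2, 10 without tamoxifen 1 and 1 without tamoxifen 2, as well as 71 without the first or without the second treated day 7 array and 417 without the first or the second mock day 7 array. Each array's value is therefore given beside many, though not all, of the differences below. Nearly all of the 105 genes or members named by rule were called in none of the fits that left out a day 4 array. The exceptions were Foxc2, Sprr1a and Adamts18, called in 2 of the 4 fits, and Foxd1, called in 1. The 18 genes called without the pairing were all among the 550. They included Foxc2, Sprr1a, Sh2d4a, Adamts18 (an ADAMTS protease gene), the cytokine gene Lif and the Wnt ligand gene Wnt9a. With normexp, Sprr1a (-0.70) and Sh2d4a (-0.74) were not called and Adamts18 (0.25) pointed the other way. Foxc2 (-3.29), Lif (1.43) and Wnt9a (1.21) were still called with it.

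**Figure D2:**
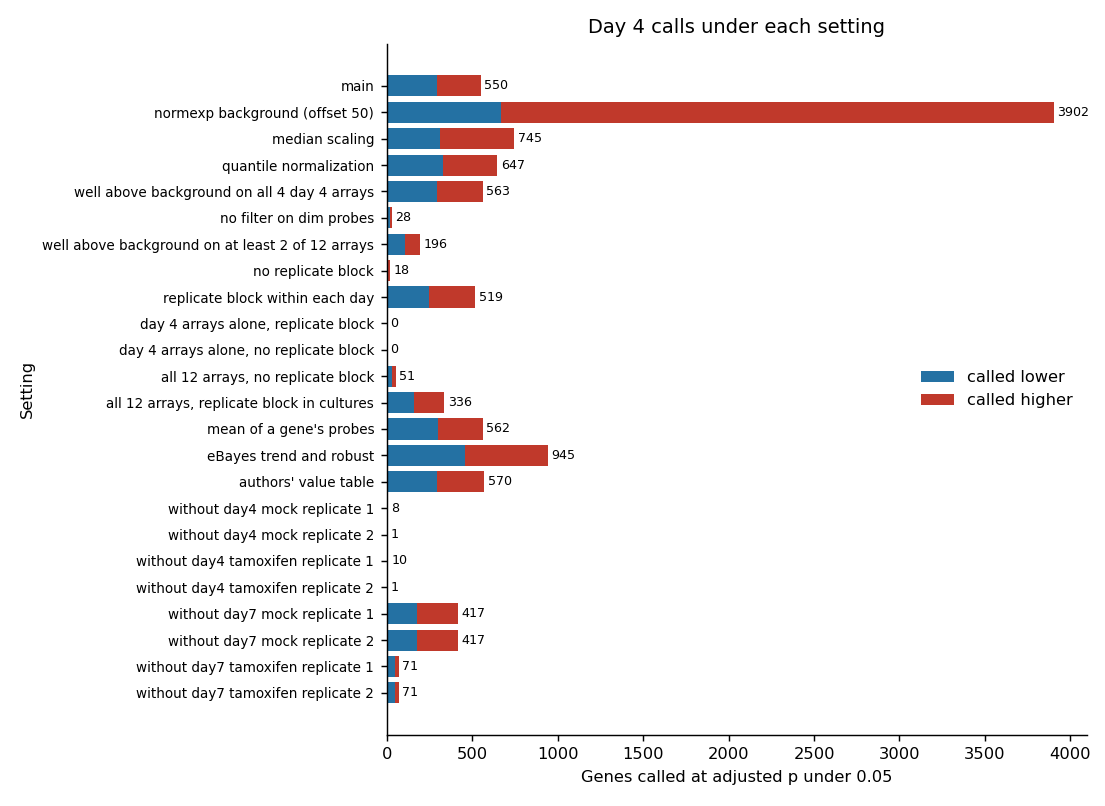
Number of genes called lower (blue) and higher (red) at an adjusted p under 0.05 by limma at day 4 (x axis) in the main fit and under each alternative (y axis), among them fits that leave out 1 array. The main fit called 550 genes, normexp background correction called 3902, and the fits without a day 4 array called between 1 and 10.

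Among the largest falls after the targeted genes were those of Cldn11, Inmt and Cdo1. Cldn11, which encodes a claudin of tight junctions, read -0.14 and 1.78 under mock and -5.77 and -4.44 under tamoxifen. The difference was -5.93 (SE 0.49, adjusted p = 0.017 by limma), and since its first treated array was not well above background the size rests in part on a dim reading. Inmt, which encodes an N-methyltransferase for indole amines, read 0.51 and 2.28 under mock and -4.30 and -3.31 under tamoxifen, a difference of -5.19 (SE 0.40, adjusted p = 0.015 by limma). For these genes the second replicate was the higher one in both groups, and the groups stood apart by more than that spread. Cdo1, the cysteine dioxygenase that starts taurine synthesis, read -0.55 and 1.43 under mock against -5.17 and -3.87 under tamoxifen. It fell by 4.96 (SE 0.56, adjusted p = 0.028 by limma). With normexp the differences were smaller, -2.59 for Cldn11, -3.10 for Inmt and -2.28 for Cdo1, and the Cdo1 call ended (adjusted p = 0.068 by limma).

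Itih2, a heavy chain of the inter-alpha-trypsin inhibitor family that binds hyaluronan, read -2.13 and -1.21 under mock and -5.53, not well above background, and -4.94 under tamoxifen and fell by 3.56. Atp1b1, the beta subunit of the sodium pump, read 3.53 and 4.62 against 0.31 and 1.31 and fell by 3.26. Nkain4, which encodes a partner protein of the same pump, read 1.75 and 2.58 against -1.38 and -0.09, a difference of -2.90. The decrease of Atp1b1 was nearly alike in both pairs, at -3.22 and -3.30. Sprr1a, a small proline-rich protein gene of stratified epithelia and stressed cells, read -1.79 and -1.39 against -4.99 and -4.68. Its difference of -3.24 (SE 0.11) had the smallest adjusted p of the named genes together with Adamts18, 0.0041 by limma. Sh2d4a, an SH2 adaptor gene, fell by 3.03, Elmod1, a GTPase activator gene for Arf-family proteins, by 3.00, and Clec2d, which encodes a lectin ligand of natural killer cell receptors, by 2.95. Cxcl12, a chemokine that podocytes are known to secrete, read 1.30 and 2.72 under mock and -1.11 and -0.77 under tamoxifen. It fell by 2.95 (SE 0.38, adjusted p = 0.034 by limma), and both treated arrays lay below both mock arrays for each gene of this paragraph. With normexp the differences of Itih2 (-0.63), Sprr1a (-0.70), Sh2d4a (-0.74) and Elmod1 (-1.29) were no longer called (adjusted p = 0.21, 0.13, 0.11 and 0.053 by limma), that of Clec2d was -1.54, and those of Atp1b1 (-3.28), Nkain4 (-2.48) and Cxcl12 (-2.53) changed little.

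The largest rises began with Rorb, an orphan nuclear receptor, which read -4.10 and -5.92 under mock and -0.70 and -1.32 under tamoxifen. Its difference was 4.00 (SE 0.35, adjusted p = 0.018 by limma), and its second mock array was not well above background. The same held for the second mock array of Tchhl1, Pitpnm3 and Galr2, so the sizes of these 4 rises and their ranks rest in part on a dim reading. Tchhl1, a member of the trichohyalin-like protein family, read -3.92 and -6.44 against -0.82 and -1.65 and rose by 3.94. Its mock replicates were further apart than its treated replicates, and the groups did not overlap. Clec18a, a C-type lectin gene, rose by 3.28, and Syt13, a synaptotagmin gene, by 3.07. Rgcc, a regulator of the cell cycle that responds to complement, read 2.39 and 0.99 under mock and 4.75 and 4.53 under tamoxifen. The treated replicates were close together and the difference was 2.95 (SE 0.42, adjusted p = 0.038 by limma).

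Krt23, a type I keratin gene, read -2.05 and -1.86 against 0.47 and 1.47, a difference of 2.92. Ass1, the argininosuccinate synthase of arginine synthesis, read 2.88 and 2.00 under mock and 5.30 and 4.92 under tamoxifen and rose by 2.67 (SE 0.30, adjusted p = 0.028 by limma). Bcat1, the cytosolic aminotransferase of branched-chain amino acids, rose by 2.76. The remaining named rises were those of Pitpnm3 (2.69), a phosphatidylinositol transfer protein family gene, Capn6 (2.66), a calpain, Cda (2.62), the cytidine deaminase of pyrimidine salvage, and Galr2 (2.59), a galanin receptor gene. Capn6 and Cda had the highest adjusted p of the 12 rises without the pairing, 0.36 and 0.41 by limma. Their mock replicates were far apart, Capn6 reading -2.17 and -4.14 and Cda -2.33 and -4.31. With normexp all 12 rises were still called, at 2.10 for Rorb, 2.07 for Tchhl1, 1.64 for Pitpnm3, 1.72 for Cda and 1.55 for Galr2.

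**Figure D3:**
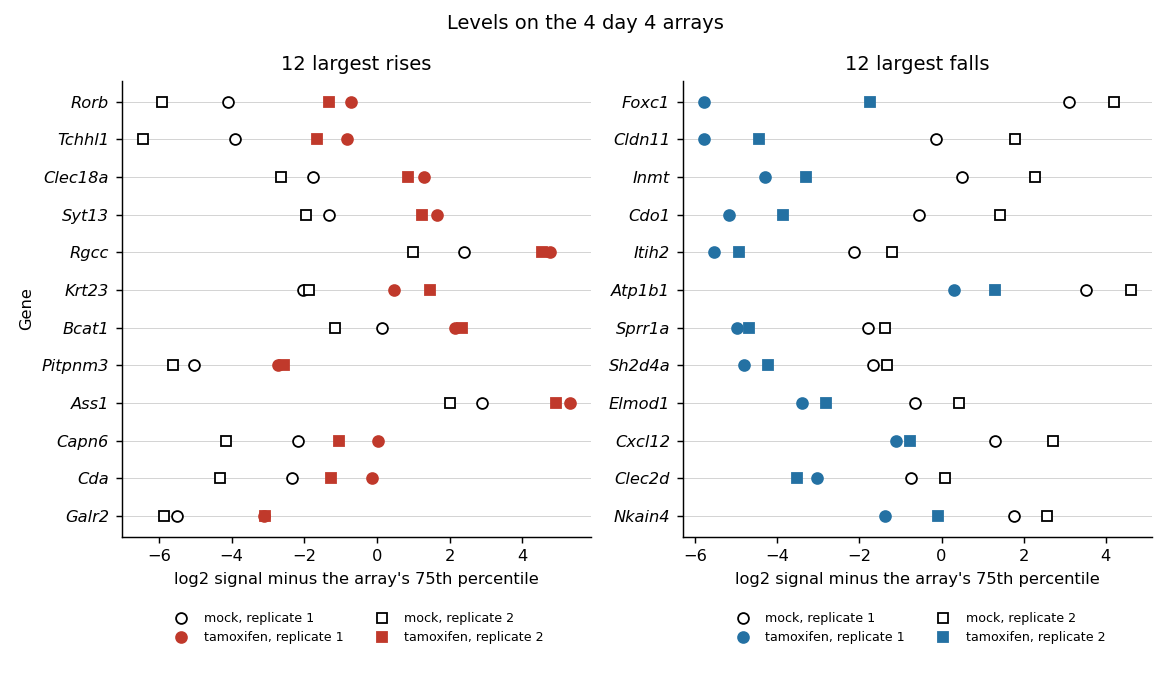
Level of the 12 largest rises (left) and the 12 largest falls (right) on the 4 day 4 arrays, as log2 signal minus the array's 75th percentile (x axis); open symbols are mock and filled symbols tamoxifen, circles replicate 1 and squares replicate 2. In every row both filled symbols lie on the same side of both open symbols, by construction of the rule that chose these genes, and replicate 2 is the higher mock symbol for all 12 falls.

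Several called genes were not well above background throughout 1 group. Their change is given as a bound relative to the floor described for Foxc2, in place of a size. By that floor, the transglutaminase gene Tgm5 was 11.7-fold lower in treated cultures. Its mock values were -2.73 and -1.26, and its normexp difference of -0.48 was not called. Adamts18 was 5.42-fold lower and Myzap, which encodes a junction protein of heart muscle, 4.13-fold lower. With normexp the differences of both pointed the other way, at 0.25 and 0.45. In the other direction Cnmd, the anti-angiogenic chondromodulin, was 5.50-fold higher and Cnr1, a cannabinoid receptor, 5.21-fold higher. For Cnr1 the bound is the fitted fold itself, because its dim readings were taken as the floor. Lif, a cytokine of the interleukin-6 family, was 5.02-fold higher, with treated values of -3.19 and -3.48. Rnase12, of the ribonuclease A family, was 4.10-fold higher. These 4 bounds hold for the main background subtraction, and under normexp the log2 differences were smaller than the bounds, at 1.56 for Cnmd, 1.55 for Cnr1, 1.43 for Lif and 1.51 for Rnase12, all still called. In all, 18 called genes were dim on both mock arrays and 20 on both treated arrays.

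Because the targeted genes encode forkhead proteins, promoters were searched for the forkhead core in the forms GTAAACA and ATAAACA on either strand. Each promoter ran from 250 bases before to 50 after the RefSeq transcript start, build GRCm38.p6. The core was present in 6.98% of 258 promoters of genes called higher, 5.80% of 276 promoters of genes called lower, 5.08% of 13751 promoters of genes tested and 7.97% of all 32851 promoters in the table. The shares of called genes thus lay between those of the tested genes and of the whole table. None of the 30 promoters found for 26 of the 32 named rises, falls and bounds held the core upstream of the start, which says only that these letters were not in this window. It was found upstream of the start in 14 genes called higher and 14 called lower, and 3 of the larger changes are shown, chosen after their values were seen. These upstream counts, and those of the named genes, leave out the promoters of a single chromosome, which the shares above include. The estrogen response element, GGTCA and TGACC set 3 bases apart, was in 0 promoters of called genes and in 2 of genes tested. The 250 upstream bases of each example follow in lower case on the gene's own strand, with the core in capitals (TGTTTAC and TGTTTAT are the same core read on the other strand).
Mmp13, chr9:7272264-7272513, plus strand: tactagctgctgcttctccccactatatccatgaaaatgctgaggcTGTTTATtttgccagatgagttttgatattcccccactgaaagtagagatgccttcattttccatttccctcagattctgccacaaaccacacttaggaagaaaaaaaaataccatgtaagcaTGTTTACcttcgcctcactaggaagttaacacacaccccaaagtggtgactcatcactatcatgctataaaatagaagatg
Gm4788, chr1:139781240-139781489, minus strand: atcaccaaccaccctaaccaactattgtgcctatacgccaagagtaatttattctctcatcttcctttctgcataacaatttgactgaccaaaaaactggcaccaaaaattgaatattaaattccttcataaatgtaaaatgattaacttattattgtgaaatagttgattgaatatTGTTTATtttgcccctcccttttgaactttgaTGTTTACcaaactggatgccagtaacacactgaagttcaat
Serpina3n, chr12:104406458-104406707, plus strand: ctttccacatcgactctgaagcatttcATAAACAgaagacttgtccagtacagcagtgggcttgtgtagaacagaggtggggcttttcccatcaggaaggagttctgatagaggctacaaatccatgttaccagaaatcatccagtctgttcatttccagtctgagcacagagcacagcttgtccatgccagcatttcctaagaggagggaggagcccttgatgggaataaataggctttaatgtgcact

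Mmp13, the collagenase gene, held the core starting at -204 and -81 from the start, read -4.35 and -2.82 under mock and -7.27 and -5.86 under tamoxifen, and its treated arrays were not well above background. By the floor described for Foxc2 it was 3.89-fold lower (adjusted p = 0.048 by limma), with the opposite sign, 0.46, under normexp. Gm4788, a gene model with the core at -73 and -41, read -2.20 and -2.34 against -4.29 and -4.77 and fell by 2.26 (SE 0.18, adjusted p = 0.017 by limma), or -0.19 under normexp, not called. Serpina3n, a serine protease inhibitor gene with the core at -223, read -1.99 and -3.34 against 0.02 and -0.65 and rose by 2.35 (SE 0.39, adjusted p = 0.048 by limma). A match is a description of the sequence and no binding was measured.

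Podocyte genes moved in both directions without a common shift. Of 31 slit diaphragm and foot process genes that passed the filter on dim probes, out of 33, 1 rose and 5 fell (19.4% called, against 4.05% of genes tested), and the median difference was 0.00, with the opposite sign under normexp (-0.20) and quantile normalization (-0.10), against 0.01 over all genes. Ptpro, the receptor tyrosine phosphatase of the podocyte surface, fell by 1.41, Arhgef26, an exchange factor for small GTPases that is named after its value was seen, by 1.03, Inf2, a formin mutated in familial glomerulosclerosis, by 0.82 and Tjp1, the scaffold ZO-1 of the slit, by 0.64. The Ptpro difference was -0.10 under normexp, not called. Inf2 read 4.997 and 4.839 under mock and 4.13 and 4.07 under tamoxifen, so that the groups were separated by more than the gap between replicates. Magi1, a scaffold related to the slit protein Magi2, rose by 1.11, from 0.37 and -0.06 to 1.33 and 1.20. Nephrin (Nphs1) differed by 0.55 (adjusted p = 0.43), podocalyxin (Podxl) by 0.10 (adjusted p = 0.60) and Synpo by -0.67 (adjusted p = 0.070), none of them called by limma. Nck1, an adaptor of nephrin signalling, had the largest difference of the list, 4.47, without being called (SE 2.27, adjusted p = 0.31 by limma). It read -7.35 on the first mock array and 1.03, 1.43 and 1.19 on the other 3, so that 1 array set the difference. In bulk RNA, fewer cells of a type and less RNA per cell cannot be told apart.

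Of 21 podocyte transcription factor genes, Foxd1 alone was called (4.76%, against 4.05% of genes tested). It is a forkhead factor of the kidney stroma and podocytes, read 2.98 and 3.55 under mock and 1.25 and 1.55 under tamoxifen, and fell by 1.87 (difference -1.87, SE 0.11, adjusted p = 0.011 by limma). Wt1 differed by 0.43 (adjusted p = 0.083, not called by limma), and the list's median was -0.09. Among 20 forkhead genes kept, out of 31, Foxl1 rose by 1.81, from -0.66 and -1.09 to 1.01 and 0.86, and Foxd1 was again the fall. The median over this list, which leaves out Foxc1 and Foxc2, was 0.07, or 0.27 under normexp, and the members ran from -1.87 to 1.81.

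Of 29 podocyte surface and secreted genes kept, 3 rose and 4 fell (24.1% called, against 4.05% of genes tested), with a median of -0.13 that turned to 0.39 under normexp. Enpep, the aminopeptidase that degrades angiotensin II, rose by 1.73, from 0.74 and 0.26 to 2.30 and 2.16. The neutral endopeptidase gene Mme rose by 0.77 and the intermediate filament gene Nes by 0.47 (0.20 under normexp, not called). Angpt1, the angiopoietin that podocytes supply to the glomerular endothelium, read 0.38 and 1.14 under mock and -0.48 and -0.05 under tamoxifen and fell by 1.02. Dpp4, a peptidase, fell by 0.76 (-0.57 under normexp, not called) and Cd55, which protects cells from complement, by 0.75. Npnt, the basement membrane ligand of integrin alpha 8, fell by 0.83 but differed by 0.10 under normexp. Vegfa differed by 0.95 without being called (adjusted p = 0.19 by limma).

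Among matrix genes, the called members of the basement membrane and interstitial lists rose. Of 22 basement membrane genes, Col4a6 (0.71) and the laminin gene Lamc1 (0.59) were called (9.09%, against 4.05% of genes tested), and the median was 0.25. Under normexp they differed by 0.43 and 0.34 and neither was called. Both treated arrays lay above both mock arrays for 12 of the 22 (54.5%, against 28.0% of genes tested) and below them for 4 (18.2%, against 23.1%). Col4a3 and Col4a4, the collagen IV chains of the mature glomerular membrane, differed by -0.86 (adjusted p = 0.075) and -0.57 (adjusted p = 0.12), not called by limma, with both treated arrays below both mock arrays for each. Of 28 interstitial matrix genes, Vcan, the large proteoglycan versican, read -1.87 and -2.30 under mock and 0.01 and -0.11 under tamoxifen and rose by 2.04 (SE 0.31, adjusted p = 0.041 by limma). Fbln2, a fibulin gene, read 5.26 and 3.86 against 6.24 and 5.48 and rose by 1.30. These were the called members of the interstitial list (7.14%, against 4.05%). Differences in that list ran from -1.99, not called, to 2.04. Here 16 of 28 members (57.1%, against 28.0%) had both treated arrays higher and 5 (17.9%, against 23.1%) had both lower, with a median of 0.33. Fibronectin (Fn1) differed by 0.08 and Col1a1 by 0.31, neither called (adjusted p = 0.81 and 0.72 by limma).

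The proteases of the matrix did not share that direction. Adamts10 fell by 0.79, and Adamts18 and Mmp13, dim on both treated arrays, were lower, with the bounds given above. Each of these 3 differences pointed the other way under normexp (0.81 for Adamts10, 0.25 for Adamts18 and 0.46 for Mmp13). Of 28 protease genes 1 was called higher and 3 lower (14.3%, against 4.05% of genes tested), and the median was -0.07, or 0.36 under normexp. In the hyaluronan list, with 12 of 22 members kept, Itih2 and Stab1, a scavenger receptor that takes up hyaluronan, fell (16.7% called, against 4.05%). The median of this list was 0.04, or 0.39 under normexp.

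The actin and adhesion genes differed in both directions, from -1.37 for the integrin gene Itgb3 to 1.42 for Itga6, neither called (adjusted p = 0.16 and 0.053 by limma). Of 32 genes 2 were called (6.25%, against 4.05% of genes tested) and both fell, the integrin gene Itgb5 by 0.71 and Lims2, which binds integrin-linked kinase, by 0.87, and the median was 0.02, or -0.21 under normexp and -0.06 under quantile normalization. Itgb5 read 6.08 and 6.34 under mock and 5.42 and 5.57 under tamoxifen, a gap larger than that between replicates. Of 16 smooth muscle genes, by contrast, 14 were higher by their mean and 12 had both treated arrays above both mock arrays (against 28.0% of genes tested), with 0 below, and the median was 0.51. The called members were Actg2, the enteric smooth muscle actin, at 1.47 and 1.22 under mock and 2.57 and 3.14 under tamoxifen (difference 1.51), and Ldb3, a Z-disc protein gene, which rose by 0.99. They made up 12.5% of the list, against 4.05% of genes tested. Calponin (Cnn1) differed by 1.32 (adjusted p = 0.065), Acta2 by 0.44 (adjusted p = 0.10) and the co-activator gene Myocd by 0.79 (adjusted p = 0.058), not called by limma. The summed linear level of 17 mesangial and mural cell markers was 518.0 and 484.4 under mock and 638.5 and 687.7 under tamoxifen. Some of these markers are the same contractile genes, and most of each sum came from Acta2 and Tagln. The sums are therefore not a level of the 17 markers alike. By their mean, 8 of the 15 markers kept were higher and 7 lower. The part of mural cells in these differences was not tested. Rgs5, a pericyte marker, fell by 1.88 (-0.62 under normexp, not called). It was the called member of the mural list (6.67%, against 4.05%), whose median was 0.07, or -0.01 under normexp.

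**Figure D4:**
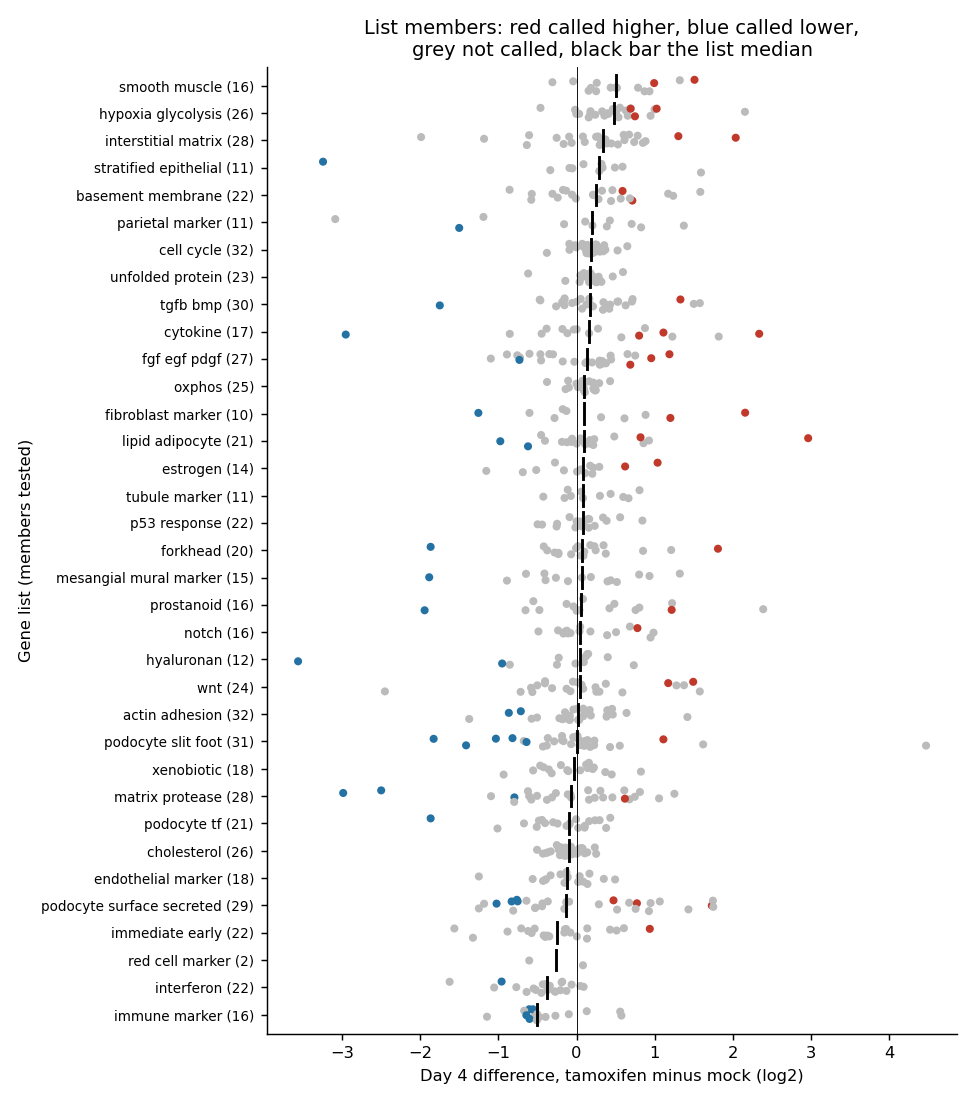
Day 4 difference in log2, tamoxifen minus mock (x axis), of each tested member of the 35 gene lists (y axis, number tested in brackets); red points were called higher, blue points called lower, grey points not called, and the black bar is the list's median. The lists run from a median of 0.51 for smooth muscle to -0.51 for immune markers, most medians lie near 0, and 13 of them change sign under another background correction or scaling.

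The called members of the growth factor, TGF-beta, Wnt and Notch lists all encode ligands. In the list of fibroblast, epidermal and platelet-derived growth factors, Fgf2 rose by 1.19, with its second mock array dim, Pdgfb, a ligand of mural cells, by 0.96 and Hbegf, a ligand of the EGF receptor, by 0.69 (0.42 under normexp, not called), out of 27 genes. Pdgfb read 2.68 and 2.64 under mock and 3.56 and 3.68 under tamoxifen, with replicates close in both groups. Fgf7 fell by 0.73 and differed by 0.17 under normexp. Tgfb3, a ligand of the transforming growth factor family, read 4.48 and 4.04 against 5.55 and 5.62 and rose by 1.33 (SE 0.17, adjusted p = 0.035 by limma). Bmp6, of the same superfamily, read -0.56 and -0.12 against -2.16 and -2.01 and fell by 1.75 (SE 0.21, adjusted p = 0.030 by limma). The other 28 of 30 genes of that list were not called. Of 24 Wnt genes, the ligands Wnt9a and Wnt5b rose, by 1.49 and 1.17. Wnt9a read -0.52 and -0.79 under mock and 0.84 and 0.82 under tamoxifen, with no overlap. Of 16 Notch genes the ligand gene Jag1 rose, by 0.78.

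Cytokine genes went both ways. Of 17 kept out of 27, Lif, Ccl7 and Csf1 rose and Cxcl12 fell. Csf1, the growth factor of macrophages, rose by 0.80 without overlap of the groups, and Ccl7, a monocyte chemokine, rose by 1.11. Among 16 prostanoid genes, Ptgs2, the inducible cyclooxygenase, rose by 1.22, from -0.72 and -1.78 to 0.32 and -0.40. Ptgis, the prostacyclin synthase, read -0.04 and 0.65 under mock and -1.78 and -1.50 under tamoxifen and fell by 1.94 (SE 0.15, adjusted p = 0.015 by limma). The medians of the cytokine and prostanoid lists were 0.16 and 0.06, or 0.70 and 0.38 under normexp, where the median of all genes was 0.07. Growth factor, TGF-beta, Wnt and Notch medians were 0.14, 0.17, 0.04 and 0.04, or 0.21, 0.18, 0.52 and 0.51 under normexp. The called shares were 14.8%, 6.67%, 8.33% and 6.25% in these 4 lists, 23.5% among cytokines and 12.5% among prostanoid genes, against 4.05% of genes tested.

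Hypoxia and glycolysis genes were higher in the treated cultures for 23 of 26 members by their mean, with both treated arrays above both mock arrays for 11 (42.3%, against 28.0% of genes tested) and below for 0, and a median of 0.48. The called members were Pgk1, phosphoglycerate kinase, the glucose transporter gene Slc2a1 and Pfkl, a phosphofructokinase. Pgk1 read 5.80 and 5.07 under mock and 6.74 and 6.18 under tamoxifen, a difference of 1.02 (SE 0.09, adjusted p = 0.018 by limma). Slc2a1 read 3.10 and 2.68 against 3.84 and 3.32 and rose by 0.69, and Pfkl rose by 0.75 (0.48 under normexp, not called). Each had its treated arrays above its mock arrays, by less than 2-fold except for Pgk1. Pdk1, which limits pyruvate entry into the mitochondria, differed by 1.00 (adjusted p = 0.056) and the carbonic anhydrase Car12 by 2.15 (adjusted p = 0.085), with overlapping groups and no call by limma. Oxidative phosphorylation genes had 0 calls by limma among 25 (5 at an unadjusted p under 0.05, against 23.9% of genes tested), with 20 higher by their mean. Both treated arrays lay above both mock arrays for 15 (60.0%, against 28.0% of genes tested) and below them for 2 (8.00%, against 23.1%). The median of these genes was 0.10, or -0.16 under normexp. Of 21 lipid and adipocyte genes, Adipoq, the adiponectin gene, was 3.85-fold higher by the floor described for Foxc2. Both its mock arrays were dim, and its log2 difference was 1.53 under normexp. Ppargc1a, a co-activator of mitochondrial genes, rose by 0.82. The adipocyte regulator Pparg fell by 0.97 (-0.38 under normexp, not called), and the fatty acid receptor gene Cd36 fell by 0.62 with overlapping groups and differed by 0.32 under normexp. Called genes were 19.0% of the lipid and adipocyte list, against 4.05% of genes tested. Cholesterol synthesis had 0 calls by limma among 26 genes, and 0 at an unadjusted p under 0.05, and a median of -0.10.

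Lists that bear on stress and on the drug held few called genes. Of 22 interferon-stimulated genes 20 were lower by their mean, 13 had both treated arrays below both mock arrays (59.1%, against 23.1% of genes tested) and 0 above, and the median was -0.37, or -0.07 under normexp. Ifit2 was the called member, at -1.66 and -1.20 under mock and -2.46 and -2.31 under tamoxifen (difference -0.96, or -0.18 under normexp, not called). Ifit3 differed by -1.62 (adjusted p = 0.055 by limma). In the immediate early list Ier3 rose by 0.94 (0.59 under normexp, not called), with 22 genes kept and a median of -0.25, or 0.13 under normexp. By their mean 15 of the 22 were lower. Both treated arrays lay below both mock arrays for 10 (45.5%, against 23.1% of genes tested) and above them for 3 (13.6%, against 28.0%). The unfolded protein list had 0 calls by limma among 23 genes (4 at an unadjusted p under 0.05), with Chac1 at 0.59 and Atf3 at -0.62. By their mean 21 of the 23 were higher, 13 (56.5%, against 28.0% of genes tested) had both treated arrays above both mock arrays and 1 had both below, and the median of 0.18 became -0.05 under normexp. Among p53 targets, 0 of 22 were called (4 at an unadjusted p under 0.05) and the largest differences were 0.84 for Gdf15 (adjusted p = 0.094 by limma) and 0.56 for Gadd45a, and the median was 0.08, or -0.11 under normexp. None of 32 cell cycle genes was called by limma (1 at an unadjusted p under 0.05), with a median of 0.19, and 27 were higher by their mean, Ccne1 differing by 0.65 and Bub1 by 0.52. Of 14 estrogen-responsive genes kept out of 18, which were looked at because tamoxifen binds the estrogen receptor, Cav1 rose by 1.04 and Celsr2 by 0.62, with a median of 0.08 or -0.01 under normexp. Of 18 xenobiotic response genes 0 were called by limma (5 at an unadjusted p under 0.05), the largest differences being 0.82 for Ahr and -0.93 for Abcb1a, around a median of -0.03, or 0.02 under normexp. All counts of called genes in this paragraph are read against the 4.05% of tested genes called.

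Markers of other cell types showed 1 group that moved together within pairs. The complement genes C1qa, C1qb and C1qc and the signalling adaptor gene Tyrobp, which macrophages express, fell by 0.61, 0.60, 0.56 and 0.64. C1qa read 1.64 and 0.05 under mock and 0.93 and -0.45 under tamoxifen, and the groups overlapped for all 4 genes. The replicates differed by more than the groups, and the calls ended without the pairing (adjusted p = 0.041 for C1qa by limma with it, 0.82 without). Of 16 immune markers kept, 4 were called (25.0%, against 4.05% of genes tested). By their mean 13 of the 16 markers were lower, with a median of -0.51. Their summed linear level was 33.8 and 18.3 under mock and 24.2 and 16.7 under tamoxifen. Of the 19 immune markers on the array 15 were well above background on both mock arrays, and H2-Aa and Ms4a1 on no day 4 array. Stab1, of the hyaluronan list and also a macrophage gene, fell by 0.95 with the same overlap. Its part in the hyaluronan count was not tested.

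Among 10 fibroblast markers kept 3 were called (30.0%, against 4.05% of genes tested). Pi16 rose by 2.16 and Mfap5, a microfibril protein gene, by 1.20, while the transcription factor gene Twist2 fell by 1.25, and 10 of the 13 markers listed were well above background on both mock arrays, with Col1a1 at 4.87 and 3.66, while Dpt and Lum were so on no day 4 array. The summed level of the fibroblast list was 37.4 and 20.3 under mock and 41.0 and 27.9 under tamoxifen. Of 11 parietal epithelial markers Cldn1, a claudin gene, fell by 1.50 (-0.42 under normexp, not called), from -0.99 and -0.84 to -2.37 and -2.46, against a list median of 0.20 and sums of 67.4 and 65.5 under mock and 68.7 and 73.3 under tamoxifen. Of 11 stratified epithelial genes Sprr1a fell, with a median of 0.29, or 0.77 under normexp. In the parietal and in the stratified list the called gene was 9.09% of members, against 4.05% of genes tested. None of 18 endothelial markers was called (4 had an unadjusted p under 0.05), the largest difference being -1.25 for Plat (adjusted p = 0.091 by limma), around a median of -0.12, or 0.38 under normexp. Tubule markers had 0 calls by limma among 11 (3 at an unadjusted p under 0.05), with a median of 0.08, or 0.82 under normexp. Only 2 of the red blood cell markers were kept, neither with an unadjusted p under 0.05 by limma, with Hba-a2 at -0.60 and Slc4a1 at 0.08 and a median of -0.26, or 1.04 under normexp.

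The day 7 arrays are separate from those that give the day 4 difference, although they entered the estimate of its error. Of the 255 genes called higher at day 4, 250 (98.0%) had both day 7 pairs higher, against 37.4% of all genes tested. Of the 295 called lower, 293 (99.3%) had both day 7 pairs lower, against 36.4%. At day 7 itself 1085 genes were called (7.99%), and 493 genes were called in the same direction on both days, which is 89.6% of the day 4 and 45.4% of the day 7 calls. Both contrasts came from 1 fit with the same error for a gene, so a gene with a small error was favoured on both days. The shares over all genes tested were not matched for this. The median absolute difference of the day 4 called genes was 0.957 at day 4 and 1.045 at day 7, and 338 of the 550 were larger at day 7. At day 7 Foxc2 was well above background on both mock arrays and on neither treated array, and Foxc1 and Cldn11 on 1 of the 2 treated arrays, so no size is given for these genes. Syt13 went from 3.07 to 2.22 and Rgs5 from -1.88 to -2.82. The difference between the 2 days' responses was called for 0 genes by limma (280 had an unadjusted p under 0.05), and for 1 gene without mock 2 of day 4 or without mock 1 of day 7. Whether the same cultures were sampled on both days is not stated in the labels.

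**Figure D5:**
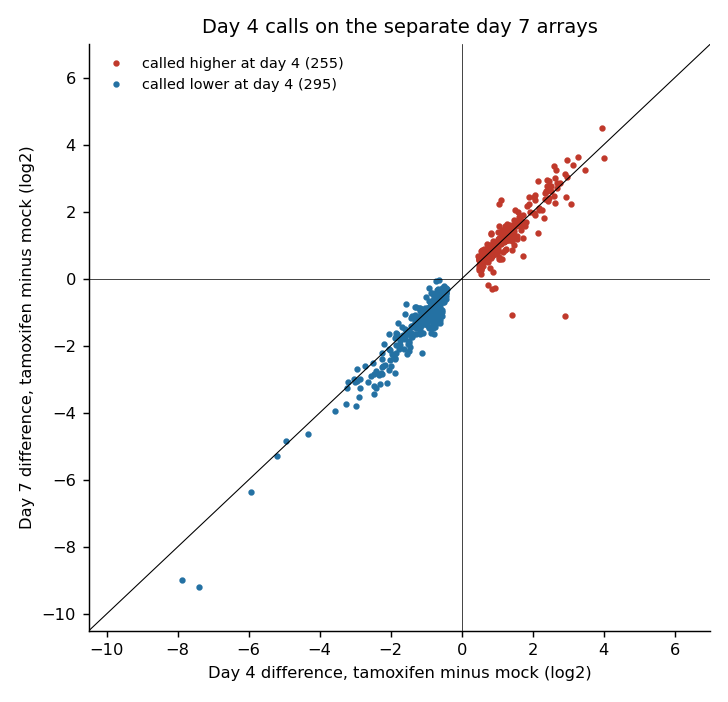
Day 4 difference (x axis) and day 7 difference (y axis), both tamoxifen minus mock in log2, of the 550 genes called at day 4, red for higher and blue for lower, with the diagonal marking equal size. Nearly all points lie in the same quadrant on both days: both day 7 pairs shared the direction for 543 genes and not for 7.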

How the data were processed

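Total RNA was labelled with Cy3 and hybridised to 1-colour Agilent arrays, each sample on an array of its own, per the labels' protocols. The deposited scanner files hold linear spot intensity from Agilent Feature Extraction 11.5.1.1, per the submitters' processing notes. The authors' deposited table of log2 values equalled the log2 processed signal minus the array's 75th percentile up to a constant of 0.09 to 0.12 per column (r = 1.0, 100% of probes within 0.1), uncentred by gene, so scale, centring and direction are known; column medians were -4.14 to -3.81. There were 0 columns of no sample.

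Here the log2 processed signal minus each array's 75th percentile was used. Control and outlier spots (106 to 118 on each day 4 array) were left out and spots of a probe averaged. Of 39429 probes, 26581 matched 1 gene symbol, 0 several and 12848 none, by RefSeq accession (26581 of 28115 matched; table build GRCm38.p6). Kept probes were those flagged well above background on 2 or more of the day 4 arrays (23006, of which 17805 had a symbol), and for 3533 genes with more kept probes the brightest over the arrays was used. Among 120 called genes with several probes, another pointed the other way for 4 (Cmtm5, Fgfr4, Shc4 and Zrsr2).

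Genes were tested with limma 3.58.1 (R 4.3.3) on the 8 culture arrays, with 4 group means and the replicate number as a block (3 residual and 2.11 prior degrees of freedom), and the fit was tested on simulated data. The pairing follows the replicate numbers in the labels, and in all 6 pairs of culture groups the replicates' deviations correlated at 0.51 to 0.70. Named genes were Foxc1, Foxc2, the 12 largest called rises and falls without overlap (symbols that only number a transcript left out), up to 4 bounds each way, and up to 4 called members of each list or, where none was called, up to 2 members as values; other genes named with values were chosen after those were seen. The comparison, the 35 lists and this rule were chosen with earlier results of these data known. Alternatives changed background correction, scaling, dim-probe filter, pairing, arrays fitted, probe choice and variance model, or left out 1 array; slide could not be fitted separately since day 4 lies on 1 slide. List members not kept were left out. Values of some genes are not reported here.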

Additional observations from a re-analysis of the deposited data

How the results depend on the processing

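The differences were the same with and without the pairing, and their errors were not. The genes called (550) became 3902 with normexp (82.9% higher, against 46.4%), 28 with no filter on dim probes, 196 with the dim-probe filter over 12 arrays, 945 with a trended robust variance, 336 on 12 arrays with the replicate block, 51 on 12 arrays without it, 18 without the replicate block on the cultures, and 0 on the day 4 arrays alone with or without it; median scaling gave 745, 58.5% higher. List members called (65) became 232, 4, 23, 121, 35, 10, 4 and 0 in that order. Leaving out 1 array gave 1 to 417 called genes, 0 to 50 list members and 0 to 1 gene with a day difference. Foxc1 stayed at -7.41 and lost its call with no filter (adjusted p = 0.10 by limma), with the filter over 12 arrays (0.058), with the block within each day (0.056), without the replicate block (0.21), on 12 arrays without it (0.12) and on the day 4 arrays alone (0.079 with and 0.19 without it). Foxc2 stayed at -7.87 and lost its call on those alone (0.069 and 0.13). With 1 array left out Foxc1 ranged from -8.63 to -6.19 and Foxc2 from -8.69 to -7.05. Foxc1 and Foxc2 could not be fitted with probes needed on all 4 arrays. Fewer arrays leave fewer residual degrees of freedom; other causes were not tested. Normexp reversed Adamts18 (0.25), Myzap (0.45), Npnt (0.10), Adamts10 (0.81), Mmp13 (0.46), Fgf7 (0.17), Atf3 (0.43), Cd36 (0.32) and Hba-a2 (1.02); 1 array left out reversed Bub1 (-0.12 to 1.17), Slc4a1 (-0.12 to 0.28), Chac1 (-0.19 to 1.37) and Atp5o (-0.91 to 0.16), none of them called. The next counts cover 2440 values, those of named genes together with the numbers of genes called higher and lower under each alternative. Of these, 1325 kept direction and call or, for a number, changed little, and 1056 kept the direction and lost the call. Another 14 gained a call, 13 reversed and 32 of the numbers of called genes moved. The slide block was not run separately. Signal near background limits the dim genes, whose changes are bounds.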

Other observations

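Outside the lists, several genes of development and secretion were called, and they were chosen here after their values were seen. Sox9, a transcription factor of nephron progenitors and injured epithelium, read -3.23 and -3.81 under mock and -1.03 and -1.24 under tamoxifen and rose by 2.39 (SE 0.26, adjusted p = 0.025 by limma). Crabp2, which carries retinoic acid to the nucleus, read 0.44 and -0.79 against 2.50 and 1.95 and rose by 2.40. Gdnf, the growth factor that guides the ureteric bud, read 1.40 and 0.79 against 2.63 and 2.24 and rose by 1.34 (SE 0.14, adjusted p = 0.025 by limma). None of these 3 genes had overlapping groups.

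Mgp, an inhibitor of calcification, read 4.30 and 5.43 under mock and 2.32 and 1.69 under tamoxifen and fell by 2.86 (SE 0.43, adjusted p = 0.040 by limma). Npr1, the receptor of atrial natriuretic peptide, read -1.38 and -0.89 against -3.62 and -3.18 and fell by 2.27 (-0.66 under normexp background correction, not called). Tnfrsf11b, the decoy receptor osteoprotegerin, read -1.31 and -2.07 against 0.76 and 0.20 and rose by 2.16. In each of these genes the treated arrays lay on 1 side of the mock arrays.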
